A study of Mus musculus with 6 samples.

Results

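The transcripts described here are those of the tissue factor and plasminogen activator system, 9 genes chosen by name (F3, Tfpi, Tfpi2, Thbd, Procr, Plau, Plaur, Plat and Vwf) out of 25572 in the table. All 9 were found, and all 9 were above the minimum mean level of 0.5 FPKM that was set for testing. Total RNA was sequenced from hind limb skeletal muscle of 3 mice labelled HDCKO and 3 labelled WT (wild type), taken 3 days after surgery. All 6 carry the treatment label HLI, read here as hind limb ischaemia (a surgical cut in the blood supply of the leg), so both groups had been operated on. HDCKO mice are the Hdc-/- animals of the protocol and lack histidine decarboxylase, which makes histamine. Unoperated muscle is not analysed here, and no label or protocol used here states the strain, sex, age or side of the leg.

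Tissue factor, the product of F3, starts blood coagulation by binding factor VII where blood meets cells outside the vessel lining, and Tfpi encodes the main inhibitor of that step. Thrombomodulin (Thbd) and the endothelial protein C receptor (Procr) work together on vessel lining cells to turn thrombin from a clotting enzyme into an activator of the anticoagulant protein C. Urokinase (Plau) and tissue plasminogen activator (Plat) cut plasminogen to plasmin, which dissolves fibrin and matrix, and Plaur encodes the receptor that holds urokinase on migrating cells. Von Willebrand factor (Vwf) is made by endothelial cells and platelet precursors and tethers platelets to a damaged vessel wall.

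In FPKM (fragments scaled by gene length and by library size, a level per length), 7 of the 9 genes were lower in HDCKO than in WT muscle at an adjusted p under 0.05, and none was higher. The receptor gene Plaur had the largest difference, with HDCKO at 7.51% of the WT mean, and Vwf the smallest, at 75.9%. Plau and Vwf did not pass. In the same test 42.6% of all 13288 genes were lower and 17.8% higher. The median log2 change was -1.74 over the 9 genes and -0.50 over all genes tested. Changes here are differences of log2(FPKM + 0.5), which understate the ratio of low values, and adjusted p-values come from limma over all genes tested. In 7 of the 9 genes the groups did not overlap with HDCKO lower, as in 51.4% of all genes. For such a gene an exact two-sided permutation test over 6 libraries gives p = 0.1, the smallest it can give. Fewer cells of a type and less RNA per cell cannot be told apart in whole muscle.

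Some features of the whole data set bear on these values. Hdc itself had 1.22 to 2.52 FPKM in HDCKO and 7.49 to 8.17 in WT libraries. The depth, estimated from the steps between low values, was 29500000 to 37600000 fragments per library. HDCKO libraries were less alike (correlations across genes of 0.887 to 0.963) than WT libraries (0.975 to 0.986). The 12 muscle fibre markers summed to 52793 to 95872 FPKM in HDCKO and to only 470 to 1754 in WT. They thus took up a far smaller share of WT than of HDCKO libraries. FPKM are shares of a library, so a gene group that takes up more of a library leaves less for the other genes. Scaling by the median of ratios between libraries moved the median change of all genes from -0.50 to -0.03. That scaling evens out the median ratio of the libraries, so a median near 0 follows from the method, whatever the cause of the shift.

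The DNA before the start site was read for the members that the RefSeq promoter table holds (5 of 9: F3, Tfpi, Tfpi2, Procr and Plaur), as a description. A link between these sequences and the changes in level was not tested. The 250 bases before the annotated start were searched on both strands for the letters of AP-1 (TGANTCA), Sp1 (GGGCGG), Egr1 (GCGTGGGCG) and the E-box (CACGTG), and for the NF-kappaB motif and the serum response element. The AP-1 motif was found for F3, Procr and Plaur and not for Tfpi or Tfpi2. The table lists 2 starts for Tfpi and 3 for Tfpi2, and only the window of the first one listed was searched, at -1943 and -20441 bases from the canonical GENCODE start (negative is upstream). No window of the 5 genes held the letters of Egr1, the E-box, the NF-kappaB motif or the serum response element, which says nothing of these factors. Of 27025 such windows, 6.87% held the AP-1 motif and 32.9% the Sp1 motif, which was found for F3, Tfpi and Plaur. The windows of the table were located in GRCm39 by exact match, and the stretches of 3 genes without annotated exons of the gene are printed 5′ to 3′ with AP-1 and Sp1 matches in capitals. They lie on the plus strand at chr3:121517049-121517176 (F3), chr2:155592887-155593030 (Procr) and chr7:24161658-24161874 (Plaur).
F3: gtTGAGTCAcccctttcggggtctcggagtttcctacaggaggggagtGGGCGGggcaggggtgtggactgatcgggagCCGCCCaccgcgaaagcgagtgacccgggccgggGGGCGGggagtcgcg
Procr: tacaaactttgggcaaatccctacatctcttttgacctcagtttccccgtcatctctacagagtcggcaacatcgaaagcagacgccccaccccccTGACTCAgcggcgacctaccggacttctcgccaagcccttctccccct
Plaur: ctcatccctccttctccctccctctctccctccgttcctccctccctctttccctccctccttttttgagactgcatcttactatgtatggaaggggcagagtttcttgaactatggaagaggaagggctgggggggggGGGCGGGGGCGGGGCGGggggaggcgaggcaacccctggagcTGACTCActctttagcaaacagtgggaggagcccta
The F3 window held a second AP-1 match, TGAATCA, at 146 to 140 bases before the start, outside the printed stretch. The whole F3 window lies inside the annotated gene, which begins further upstream at chr3:121516610. In Plaur the AP-1 match lay 69 to 63 bases before the start, and the run of capitals there is 3 Sp1 matches, of which the last overlaps its neighbour by a base. In Procr the match lay 154 to 148 bases before the start. These distances are from the RefSeq start. It lies 106 bases downstream of the canonical GENCODE start in Procr, 33 in Plaur and 0 in F3. The motif matches are matches of letters and do not show that a factor bound there.

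F3, the coagulation starter, lies on chromosome 3, 121516610 to 121528820, plus strand, in GRCm39, and like the other 8 is marked protein coding. Its level was 6.48, 9.36 and 10.2 FPKM in HDCKO mice 1, 2 and 3 and 32.2, 20.0 and 17.6 FPKM in WT mice 1, 2 and 3. Every HDCKO library lay below every WT library, and WT mouse 1 stood above the other WT mice. The HDCKO mean was 8.66 ± 1.94 FPKM and the WT mean 23.3 ± 7.84 FPKM (SD, n = 3 mice). F3 fell by 1.35 on the log2 scale (SE 0.28, limma adjusted p = 0.0102). The 95% interval of the change ran from -2.03 to -0.67, and relative to the median of all genes the change was -0.85.

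**Figure D1:**
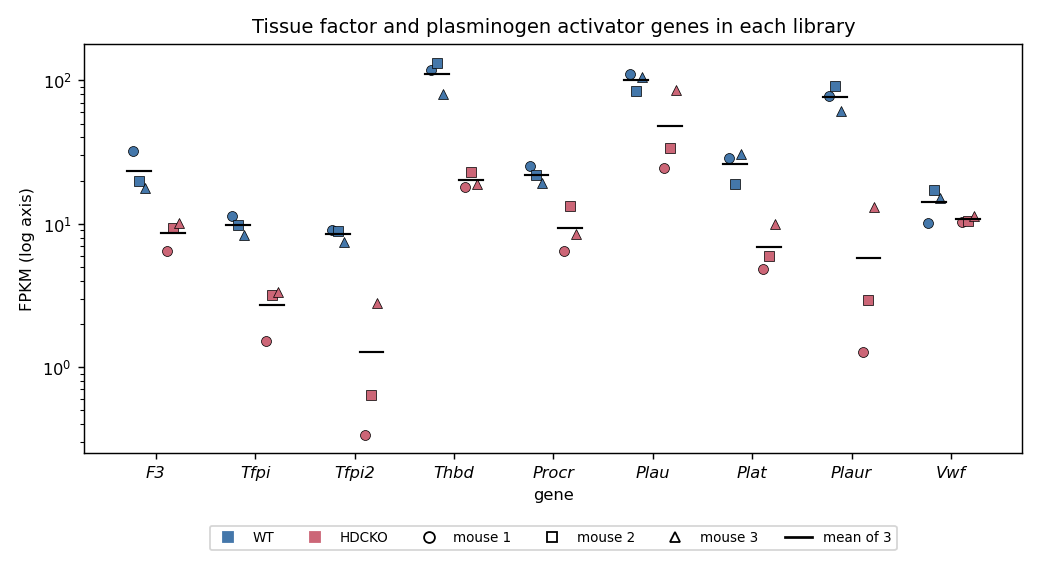
FPKM on a log axis of the 9 genes in each library, with the mean of 3 mice per group as a bar. Mouse numbers were not treated as pairs. HDCKO points lie below all WT points except for Plau, where HDCKO mouse 3 has 85.3 FPKM, and Vwf, where WT mouse 1 has 10.1.

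Tfpi (chromosome 2, 84263195 to 84307164, minus strand), whose product blocks factor X and the tissue factor complex, had 1.52, 3.21 and 3.35 FPKM in HDCKO mice 1, 2 and 3 and 11.3, 9.72 and 8.30 FPKM in WT mice 1, 2 and 3. It fell by 1.74 on the log2 scale (SE 0.29, limma adjusted p = 0.0053). The inhibitor was thus lower together with the starter that it controls. Within each library, the log2 level of F3 exceeded that of Tfpi by 1.79, 1.41 and 1.47 in HDCKO and by 1.47, 1.00 and 1.04 in WT mice. The values overlapped, and the difference in the F3 to Tfpi balance was 0.39 (exact two-sided permutation p = 0.3, adjusted p = 0.3 over 10 such balances).

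Tfpi2 (chromosome 6, 3962589 to 3988964, minus strand) encodes a relative of Tfpi that sits in the matrix and inhibits plasmin. Its level was 0.337, 0.637 and 2.82 FPKM in HDCKO mice 1, 2 and 3 and 9.03, 8.96 and 7.45 FPKM in WT mice 1, 2 and 3. The HDCKO mice differed from each other by 8.36-fold between highest and lowest, while WT mice stayed within 1.21-fold. The HDCKO values rest on an estimated 21, 35 and 195 fragments. Tfpi2 fell by 2.61 (SE 0.50, limma adjusted p = 0.0082). It was the least abundant of the 9 genes in both groups, although in each group its range touched that of Tfpi.

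Thbd (chromosome 2, 148216045 to 148250201, minus strand) had the highest mean of the 9 genes in WT muscle. Its level was 17.9, 23.1 and 19.1 FPKM in HDCKO mice 1, 2 and 3 and 118, 133 and 80.6 FPKM in WT mice 1, 2 and 3. The HDCKO libraries were close together, with a coefficient of variation of 13.6%, and far below every WT library. Thbd fell by 2.41 (SE 0.23, limma adjusted p = 8.2e-04), the smallest p of the 9 genes, with a 95% interval from -2.96 to -1.86. Procr, the partner receptor (chromosome 2, 155593031 to 155597397, plus strand), had 6.46, 13.3 and 8.51 FPKM in HDCKO mice 1, 2 and 3 and 25.1, 21.7 and 19.2 FPKM in WT mice 1, 2 and 3. Its groups did not overlap either, and HDCKO mouse 2 was the highest of its group. Procr fell by 1.23 (SE 0.27, limma adjusted p = 0.0121). With median-of-ratios scaling the change was -0.72 and did not pass (limma adjusted p = 0.0654). Under that scaling 6 of the 9 genes were called lower, against 26.1% of all genes tested.

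The thrombin and protein C receptors were compared with each other and with the vessel lining, since a difference within a library depends little on scaling. Procr was below Thbd in every library, with a log2 difference of -1.41, -0.78 and -1.12 in HDCKO mice 1, 2 and 3 and of -2.21, -2.59 and -2.04 in WT mice 1, 2 and 3. The gap was therefore smaller in HDCKO, by 1.18, with groups that did not overlap (exact two-sided permutation p = 0.1, adjusted p = 0.143 over 10 balances). The reference for the vessel lining was the mean log2 level of 12 endothelial markers (among them Pecam1, Cdh5, Kdr, Tek and Emcn). Of these 12 markers 7 fell, none rose and 5 did not pass (median change -0.76), beside 42.6% of all genes lower. Single markers ran from -2.10 (Emcn) to -0.05 (Tek) in log2 change. The 12 markers summed to 245 to 354 FPKM in HDCKO and 470 to 691 in WT. Thbd lay 1.65, 1.77 and 1.58 above this mean in WT mice and at 0.13, 0.24 and -0.22 from it in HDCKO mice 1, 2 and 3. It was thus lower relative to endothelial markers, with a change of -1.61 (exact two-sided permutation p = 0.1, adjusted p = 0.143). Which cells carried Thbd was not measured, so a change within endothelial cells was not tested. Procr relative to the same markers overlapped between groups and differed by -0.43 (exact permutation p = 0.3, adjusted p = 0.3). Tfpi and Plat were lower relative to the markers, with changes of -0.94 and -1.08, without overlap between the groups (exact permutation p = 0.1 and adjusted p = 0.143 for each). With 3 mice in each group no balance can pass a threshold of 0.05.

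**Figure D2:**
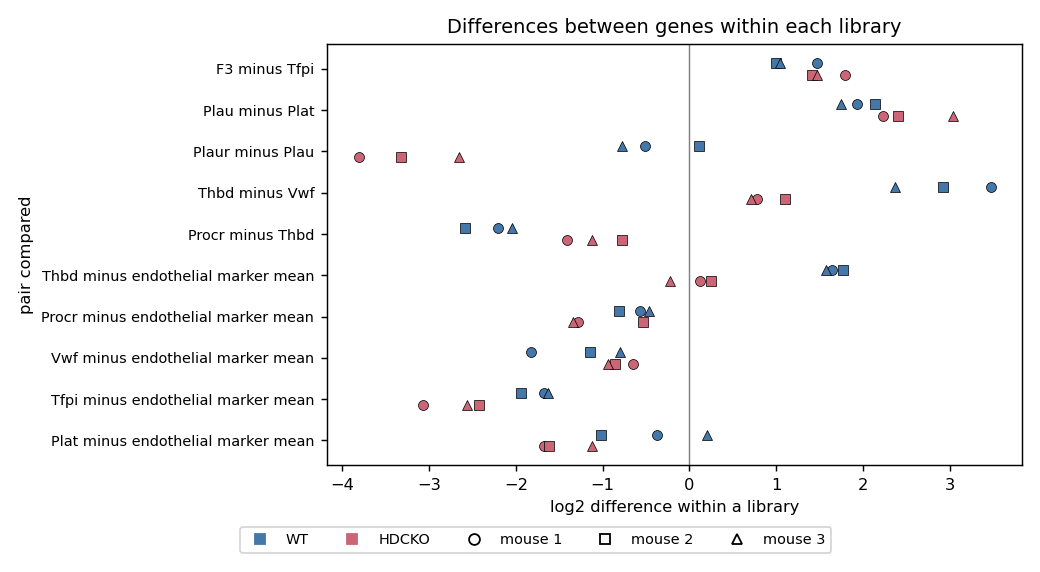
Log2 difference between 2 genes, or between a gene and the mean of 12 endothelial markers, within each library; points are mice. The groups are apart for 7 of the 10 pairs, among them Thbd minus the endothelial mean, which is 1.58 to 1.77 in WT and -0.22 to 0.24 in HDCKO.

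Vwf (chromosome 6, 125523737 to 125663642, plus strand) is also an endothelial product. It had 10.2, 10.5 and 11.4 FPKM in HDCKO mice 1, 2 and 3 and 10.1, 17.1 and 15.1 FPKM in WT mice 1, 2 and 3. HDCKO mice were nearly equal, and WT mouse 1 was below them all, so the groups overlapped. The log2 change was -0.35 (SE 0.21, 95% interval -0.87 to 0.17, limma adjusted p = 0.188). It ran from -0.57 without WT mouse 1 (limma adjusted p = 0.0535) to -0.20 without WT mouse 2 (limma adjusted p = 0.463). Its sign depended on scaling, at 0.16 with the median of ratios and 0.09 after quantile normalization. Set against Thbd in the same library, Vwf was lower by 3.48, 2.92 and 2.38 in WT mice and by only 0.78, 1.10 and 0.72 in HDCKO mice. Against the endothelial marker mean Vwf overlapped between groups and differed by 0.45 (exact two-sided permutation p = 0.3, adjusted p = 0.3), from 0.16 without WT mouse 1 to 0.68 without WT mouse 3. The Thbd to Vwf balance was lower in HDCKO, with a change of -2.06 and groups that did not overlap (exact two-sided permutation p = 0.1, adjusted p = 0.143).

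**Figure D3:**
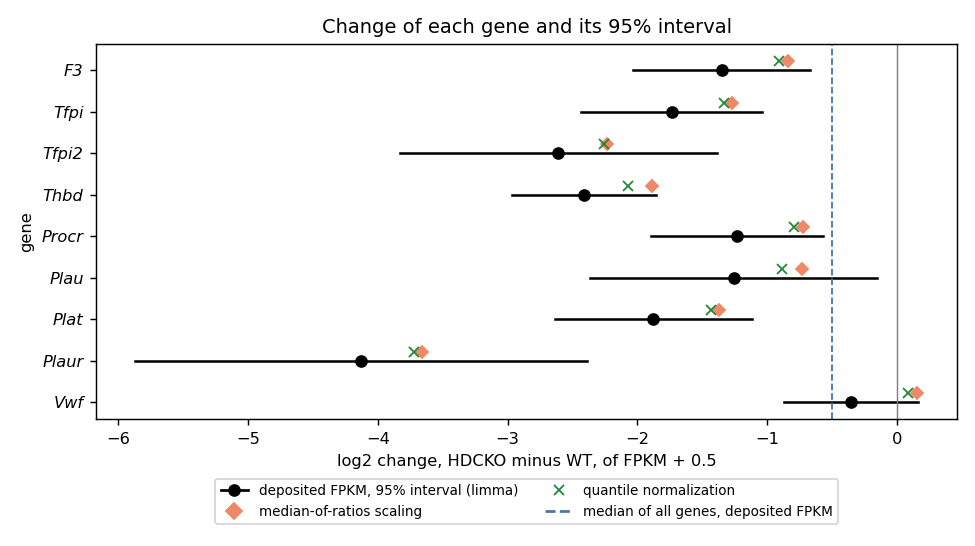
Log2 change of each gene (HDCKO minus WT) with its 95% interval from limma, and the change under 2 other scalings. Plaur lies farthest from 0 at -4.13, both other scalings lie nearer to 0 or above it, and Vwf crosses 0 at 0.16 with median-of-ratios scaling.

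The plasminogen activators did not move alike in every mouse. Plat, tissue plasminogen activator (chromosome 8, 23247709 to 23272871, plus strand), had 4.80, 5.99 and 9.91 FPKM in HDCKO mice 1, 2 and 3 and 28.7, 18.8 and 30.9 FPKM in WT mice 1, 2 and 3. All HDCKO libraries were below all WT libraries, and Plat fell by 1.88 (SE 0.31, limma adjusted p = 0.0053). Plau, urokinase (chromosome 14, 20886722 to 20893453, plus strand), had 24.4, 34.0 and 85.3 FPKM in HDCKO mice 1, 2 and 3 and 111, 84.7 and 105 FPKM in WT mice 1, 2 and 3. HDCKO mouse 3 reached the level of WT mouse 2, so the groups overlapped. The change of Plau was -1.26 (SE 0.46, 95% interval -2.36 to -0.15, limma adjusted p = 0.0521). Without HDCKO mouse 3 it was -1.77 and passed (limma adjusted p = 0.0011). Urokinase exceeded tissue plasminogen activator within every library, by 2.23, 2.41 and 3.04 on the log2 scale in HDCKO and 1.93, 2.14 and 1.75 in WT mice. That gap was wider in HDCKO by 0.62 (exact two-sided permutation p = 0.1, adjusted p = 0.143).

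Plaur, the urokinase receptor (chromosome 7, 24161875 to 24175394, plus strand), had 1.27, 2.94 and 13.1 FPKM in HDCKO mice 1, 2 and 3 and 77.5, 91.8 and 60.9 FPKM in WT mice 1, 2 and 3. The HDCKO mice spanned 10.3-fold and still lay below every WT mouse. Plaur fell by 4.13 (SE 0.72, 95% interval -5.87 to -2.39, limma adjusted p = 0.0060), and the change ran from -4.95 without HDCKO mouse 3 to -3.48 without HDCKO mouse 1. Against its ligand urokinase the receptor had a log2 difference of -3.81, -3.33 and -2.66 in HDCKO mice 1, 2 and 3. In WT mice 1, 2 and 3 the same difference was -0.52, 0.11 and -0.78. The receptor to ligand balance was lower in HDCKO, with a change of -2.87 and no overlap (exact two-sided permutation p = 0.1, adjusted p = 0.143).

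The order of levels also differed by group. In WT muscle the means ran Thbd, Plau, Plaur, Plat, F3, Procr, Vwf, Tfpi and Tfpi2, with clear gaps, where neighbours did not overlap, only after Plaur and after Procr. In HDCKO muscle they ran Plau, Thbd, Vwf, Procr, F3, Plat, Plaur, Tfpi and Tfpi2, with such gaps only after Plau and after Thbd. Vwf stood at the seventh place in WT and at the third in HDCKO, and Plaur at the third in WT and the seventh in HDCKO. Ranges of Vwf, Procr, F3, Plat and Plaur in HDCKO each touched that of the next gene.

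HDCKO mice also differed among themselves. In deposited FPKM, HDCKO mouse 1 was the lowest HDCKO library for 9 of 9 genes, as for 65.3% of all genes tested. HDCKO mouse 3 was the highest for 7 of 9, all but Thbd and Procr, as for 67.9% of all genes. The order depended on library scaling. After median-of-ratios scaling (a count added after the data were seen), mouse 1 was the lowest for 5 of 9 genes (Tfpi, Tfpi2, Plau, Plaur and Plat), beside 36.0% of all genes. Mouse 3 was then the highest for 4 of 9 (Tfpi2, Plau, Plaur and Plat), beside 38.2% of all genes. On that scale HDCKO mice 1, 2 and 3 had 1.88, 3.57 and 12.4 for Plaur and 36.1, 41.3 and 80.6 for Plau, with mouse 3 still far above. For Vwf they had 15.2, 12.8 and 10.8, with mouse 1 the highest. In deposited FPKM and relative to the WT mean on the log2 scale, Plaur was at -5.43, -4.47 and -2.49 in HDCKO mice 1, 2 and 3. Plau was at -2.01, -1.54 and -0.22 and Tfpi2 at -3.42, -2.98 and -1.43 in the same order. Thbd was at -2.56, -2.20 and -2.47, with no such spread. Of 12 monocyte and macrophage markers 8 fell and 4 did not pass (median change -2.57), and their mean log2 level relative to WT was -4.05, -2.60 and -1.06 in HDCKO mice 1, 2 and 3. Their summed level was 256 to 1996 FPKM in HDCKO and 2500 to 2850 in WT. This order of mice was not particular to them. The means were -1.79, -1.32 and -0.70 for fibroblast and -6.20, -5.36 and -5.20 for neutrophil markers. Endothelial markers had -1.02, -0.78 and -0.59, and tested platelet markers -4.47, -3.54 and -3.11. Mural cell markers had no such order (0.34, 0.22 and 0.35), and muscle fibre markers had the reverse (7.18, 6.86 and 6.29). All 12 neutrophil markers fell (median -5.73), and their summed level was 33.4 to 77.4 FPKM in HDCKO and 2572 to 14769 in WT. Among them Fpr1, Trem1 and Ly6g (HDCKO means 0.381, 0.0831 and 0.115 FPKM) reached the level for testing only through WT. Of 12 fibroblast markers 5 fell and 7 did not pass (median -1.23), with a summed level of 1610 to 2499 FPKM in HDCKO and 3129 to 5704 in WT. Among all genes tested, 42.6% were lower. No marker in these lists was at 0 in all libraries. The part of these cell types in the results for Plaur, Plau, Tfpi2 and the other members was not tested.

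**Figure D4:**
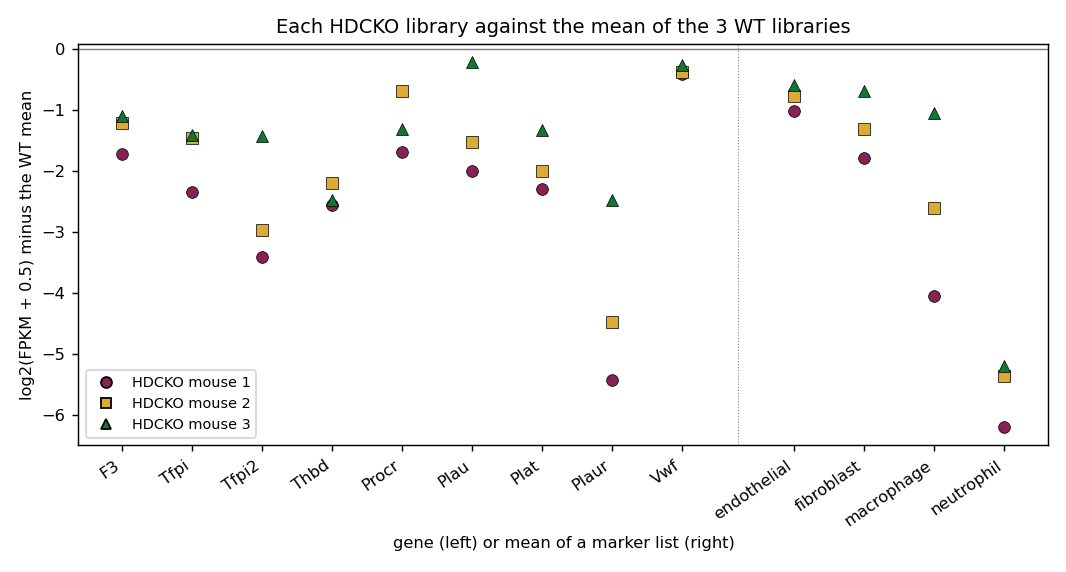
Log2(FPKM + 0.5) of each HDCKO mouse minus the WT mean, for the 9 genes and for the mean of 4 marker lists of 12 genes each. Plaur, Plau and Tfpi2 spread widely with mouse 3 nearest to WT, while Thbd stays between -2.56 and -2.20. Mouse 3 is nearest to WT in all 4 marker lists, with the widest spread for macrophage markers (from -4.05 to -1.06).

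Platelet transcripts were examined because platelets and their precursors also carry Vwf. Of 11 platelet and megakaryocyte markers 7 were below the minimum level for testing (Gp1ba, Gp1bb, Gp5, Gp9, Gp6, Treml1 and Tubb1), and none of the 11 was at 0 in all libraries. These 7 had low WT means too, from 0.0706 FPKM (Gp1ba) to 0.851 FPKM (Tubb1). The other 4 (Itga2b, Pf4, Ppbp and Clec1b) fell, beside 42.6% of all genes tested, with a median change of -2.89. Clec1b averaged 0.205 FPKM in HDCKO and reached the level for testing only through WT. The 11 markers summed to 19.5 to 153 FPKM in HDCKO and 1177 to 1729 in WT, nearly all from the chemokines Pf4 and Ppbp. Which cells carried these chemokines was not measured, so a fall of platelet RNA was not tested. The 8 mural cell markers went both ways, with 2 higher, 1 lower and 5 that did not pass (median 0.11), and summed to 286 to 334 FPKM in HDCKO and 177 to 212 in WT. The part of platelets and mural cells in the levels of these genes was not tested.

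Coagulation factor genes that could be tested were lower too. The level for testing was a mean over all 6 libraries. F5 (HDCKO mean 0.0572 FPKM) and F10 (0.343 FPKM) reached it only through the WT libraries, so they could hardly come out higher. Among 10 coagulation factors and cofactors, 6 were tested and all 6 fell, with a median change of -2.34, beside 42.6% of all genes. F10 and F7 encode the protease that tissue factor activates and the protease that it binds. F10 had 0.0432, 0.227 and 0.760 FPKM in HDCKO mice 1, 2 and 3 and 23.6, 64.8 and 25.8 FPKM in WT mice 1, 2 and 3. It fell by 5.45 (SE 0.48, limma adjusted p = 6.6e-04). F7 averaged 0.623 ± 0.867 FPKM in HDCKO against 12.1 ± 4.01 FPKM in WT mice (SD, n = 3 mice) and fell by 3.72 (SE 0.55, limma adjusted p = 0.0037). F5, the cofactor of activated factor X, fell by 2.00 (limma adjusted p = 0.0070), and F13a1, a subunit of the enzyme that cross-links fibrin, fell by 2.69 (limma adjusted p = 0.0118). F2 (prothrombin) and the fibrinogen genes Fga, Fgb and Fgg, products of the liver, were below the level for testing, with no value above 1.08 FPKM.

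**Figure D5:**
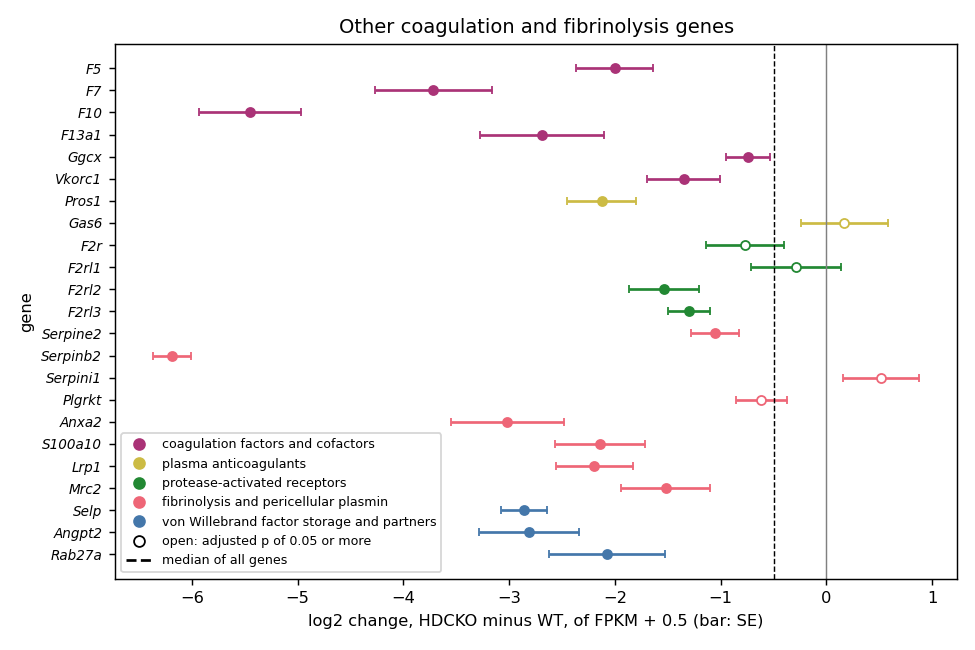
Log2 change (HDCKO minus WT) with its SE for the 23 tested genes of 5 pathway lists; open points did not pass. Serpinb2 at -6.19 and F10 at -5.45 lie farthest to the left, and both reached the level for testing only through WT. Gas6 and Serpini1 lie above 0 without passing.

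The protein C and thrombin receptor branches were mixed. Of 6 plasma anticoagulants 2 were tested. Pros1 encodes protein S, the cofactor of activated protein C, and fell by 2.13 (SE 0.33, limma adjusted p = 0.0041), from 83.7 ± 12.8 FPKM in WT mice to 19.8 ± 7.93 FPKM in HDCKO mice (SD, n = 3 mice). Gas6, a protein related to protein S that has no anticoagulant role of that kind, had a change of 0.17 (limma adjusted p = 0.730). All 4 protease-activated receptors were tested, with 2 lower, beside 42.6% of all genes, and a median change of -1.03. F2rl3 fell by 1.30 (limma adjusted p = 0.0042) and F2rl2 fell by 1.53 (limma adjusted p = 0.0110). F2rl2 averaged 0.0340 FPKM in HDCKO and reached the level for testing only through the WT libraries. The main thrombin receptor gene F2r had a change of -0.77 (limma adjusted p = 0.113) and F2rl1 one of -0.29 (limma adjusted p = 0.569).

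Of 12 other genes of fibrinolysis and plasmin at the cell surface, 8 were tested, 6 fell and none rose, with a median change of -1.83. In the same fit 42.6% of all genes were lower. Serpinb2, a serpin that inhibits urokinase, had 0.0284, 0.116 and 0.104 FPKM in HDCKO mice 1, 2 and 3 and 43.7, 48.7 and 34.4 FPKM in WT mice 1, 2 and 3. It fell by 6.19 (SE 0.18, limma adjusted p = 1.0e-04), and it was near 0 in all 3 HDCKO mice. Serpinb2 thus reached the level for testing only through the WT libraries and could hardly come out higher. Anxa2 and S100a10 encode the partners in a surface complex that docks plasminogen and tissue plasminogen activator, and they fell by 3.02 (limma adjusted p = 0.0064) and fell by 2.14 (limma adjusted p = 0.0089). Lrp1, a receptor that clears protease and inhibitor complexes, fell by 2.20 (limma adjusted p = 0.0053). Plg, the plasminogen gene itself, was at 0.176 FPKM or less in every library.

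Vwf shares its storage granules in endothelial cells with P-selectin and angiopoietin 2. Of 8 genes of von Willebrand factor storage and its partners, 3 were tested. All 3 fell (median change -2.81), as did 42.6% of all genes tested. Selp, which encodes P-selectin, had 2.74, 3.81 and 4.14 FPKM in HDCKO mice 1, 2 and 3 and 25.2, 36.0 and 25.7 FPKM in WT mice 1, 2 and 3. It fell by 2.86 (SE 0.22, limma adjusted p = 4.3e-04). Angpt2 fell by 2.81 (SE 0.47, limma adjusted p = 0.0055) and Rab27a, a regulator of granule release, fell by 2.07 (SE 0.55, limma adjusted p = 0.0204). In the same libraries the change of Vwf was -0.35 and did not pass, and the difference between Vwf and these genes was not tested.

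The genes most like each member over the 6 libraries were taken by Pearson correlation of log2(FPKM + 0.5) among 11793 protein-coding genes that averaged 1 FPKM or more, as a description. All points share the contrast of HDCKO with WT, so for Plaur 4183 genes and for Tfpi2 4112 genes had r over 0.95. The closest to Plaur were Ttc39b (r = 1.00) and Gmfb (r = 1.00), which changed by only -1.93 and -1.46. Vwf had just 7 genes with r over 0.95, the closest being Tsc22d2 (r = 0.989) and Ccdc97 (r = 0.967). Procr had 111, led by Gm12657 (r = 0.992) and the haptoglobin gene Hp (r = 0.992). F3 had 296, led by Dtd2 (r = 0.999) and Eny2 (r = 0.994), and Thbd had 625, led by Tomm5 (r = 1.00) and Ercc1 (r = 0.998). Tfpi was closest to Prtn3 and Wtip, Tfpi2 to Nup58 and Psma2, Plau to Zfp266 and Ipo5, and Plat to Tmem41a and Tm7sf3.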

How the data were processed

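Total RNA from 3 HDCKO and 3 WT mice was sequenced, and the deposited table gives FPKM values per gene, which the authors made by converting counts for gene length and depth, per the submitters' processing notes. Those notes name FastQC 0.11.9, HISAT2 2.1.0, HTSeq 0.11.2, STAR 2.7.11b and GRCm39. No source used here says which aligner fed the table or how shared reads and strand were treated. Counts were not used here. Depth was estimated from low values (86.5% of 5596 low genes were whole multiples of a step within 0.02 reads) and entered no test. The fragment numbers use the commonest depth, which 225 genes gave, while 4843 had whole steps. They also use GENCODE exon lengths, which may differ from those behind the deposited FPKM, so they are approximate.

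Groups and mouse numbers came from sample titles. With R 4.3.3, limma 3.58.1 was fitted with a trend to log2(FPKM + 0.5) of the 13288 genes that averaged 0.5 FPKM or more, with no covariate. Benjamini-Hochberg adjustment ran over all genes tested (threshold 0.05). Balances were tested by exact two-sided permutation. The fit was also run on simulated data with independent noise, few changed genes and no shift between libraries. These data differ in that, so the run does not test the fit under a broad shift. Named genes were the members, up to 4 genes of each pathway list with the smallest p, and the 2 genes most like each member. The members and lists were chosen with earlier results of these data known. Gene places are from GENCODE vM39 on GRCm39, and promoter sequences from RefSeq (table of GRCm38.p6). The activator inhibitor that the selection rule mentions in words is not analysed here. A further platelet marker is not reported here.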

Additional observations from a re-analysis of the deposited data

How the results depend on the processing

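Besides the deposited scaling, other pseudocounts (0.1 and 1), filters, scalings, array weights, a replicate block and the removal of each mouse in turn were tried. F3, Tfpi, Tfpi2, Thbd, Plaur and Plat stayed lower and past the threshold in all 15 settings. Procr changed by -0.72 with median-of-ratios scaling and did not pass. Plau passed with array weights (-1.59, a fit that stopped before convergence) and without HDCKO mouse 3, and its change ran from -1.77 to -0.88 with a mouse left out. The change of Vwf was 0.16 with median-of-ratios scaling, 0.0896 after quantile normalization and 0.039 when each library was rescaled without fibre and mitochondrial genes. Of all genes, 5658 were lower on deposited values, 3457 with median-of-ratios scaling, 3264 with that rescaling, and 2507 to 7288 with a mouse left out. Genes that were higher made up 29.5%, 50.5% and 51.5% of the calls under the same 3 scalings. The cause was not tested. The balances kept their sign in all 10 settings tried. In the main fit mouse numbers were not treated as pairs. Correlations of deviations were 0.12, 0.07 and 0.14 for numbers 1, 2 and 3. HDCKO mice 1 and 3 correlated best with the WT mouse of their number, and HDCKO mouse 2 with WT mouse 1. With 3 mice per group these values cannot decide whether the numbers pair the groups. With the replicate block 7 members were lower (5089 of all genes), and the change of Plau was -1.26 (limma adjusted p = 0.0523). Tfpi2 in HDCKO mice 1 and 2 is limited by depth.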
